A study of Mus musculus with 3 samples.

Results

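Retinoid synthesis and binding genes were followed across the cell types of the mouse cochlea. The 9 genes, of 32285 in the feature tables, were chosen by symbol: Aldh1a1, Aldh1a2 and Aldh1a3, which make retinoic acid, Dhrs3, which turns its precursor back, Crabp1 and Crabp2, which carry retinoic acid, and Rbp4, Rbp7 and Rlbp1, which carry retinol or retinaldehyde. Their transcripts were counted as unique molecular identifiers (UMIs) in droplet-based single-cell RNA sequencing of the 3′ ends. The study compared cochlear cells at postnatal days 14 (P14) and 28 (P28), around and after the onset of hearing, in C57/B6 mice with no other genotype or treatment. Each library held the dissociated tissue of 14 ears pooled from 7 mice, mostly from the upper basal to apical turns. P14 was represented by 1 library and P28 by 2 (replicates 1 and 2), so no test was made between the ages, and a spread over libraries includes both biological and technical differences.

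Vitamin A reaches tissues as retinol, which is bound in blood by Rbp4 and inside cells by small carriers of the Rbp family. Retinol dehydrogenases oxidize it reversibly to retinaldehyde, and the Aldh1a enzymes then oxidize retinaldehyde irreversibly to retinoic acid, the ligand of the nuclear receptors Rar and Rxr. Crabp proteins carry retinoic acid within the cell, and Cyp26 enzymes break it down. In the inner ear, retinoic acid is best known for its part in development, where too little or too much of it disturbs the forming ear.

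Barcodes with 200 to 6000 genes and at most 15% mitochondrial UMIs were kept, which left 1662 of 2513 barcodes at P14, 5651 of 11948 in P28 replicate 1 and 7065 of 18196 in P28 replicate 2. The kept cells held between 7432047 and 24596587 UMIs per library, with median depths of 2037 to 2477 UMIs and median mitochondrial shares of 6.24% at P14 and 10.0% and 10.8% at P28. Kept barcodes shared between libraries numbered 4 to 10 per pair. Clusters were named with the ending "-like" from marker genes, and neither the 9 genes nor other retinoid genes took part in the clustering. The names include inner and outer hair cells (IHC, OHC), spiral ganglion neurons (SGN), Deiters' and pillar cells (DC/PC), inner sulcus, Hensen's and outer sulcus cells (ISC/HeC/OSC), Reissner's membrane (RM), tympanic border cells (TBC), spindle and root cells (SpC/RC), intermediate cells (IC), and Schwann and satellite glial cells (SC/SGC). The name Ucma+ epithelial-like rested on 3 of its 5 markers (Ucma, Epcam and Cldn9), and clusters 6, 14 and 16 were epithelial but stayed unnamed. Ucma+ epithelial-like cells and clusters 6 and 16 each also met 6 of the 7 ISC/HeC/OSC markers. Cluster 6 met 5 of 6 markers of inner phalangeal and border cells and 4 of 7 DC/PC markers too. DC/PC-like cells also met 6 of 8 OHC markers. A level is the UMIs of a gene per 1000000 summed UMIs of a class in a library (CPM), with values in the order P14, P28 replicate 1 and P28 replicate 2. Exact Poisson and exact binomial 95% intervals cover counting error only. Since UMIs count 3′ ends, CPM was not divided by transcript length.

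The 3 retinaldehyde dehydrogenases were highest in 3 different classes. Aldh1a1 was highest in Ucma+ epithelial-like cells, Aldh1a2 in fibroblast-like cells and Aldh1a3, at P28, in SGN-like cells. In Ucma+ epithelial-like cells Aldh1a1 made up 97.1%, 97.2% and 98.4% of the UMIs of the 3 genes together. In fibroblast-like cells Aldh1a2 made up 69.9%, 64.1% and 62.6%, and most of the remainder was Aldh1a1, at 23.9%, 28.2% and 31.0%. In SGN-like cells at P28 Aldh1a3 made up 98.6% and 98.3%. In each of these classes, the gene with the largest share was the same in the libraries given.

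**Figure D1:**
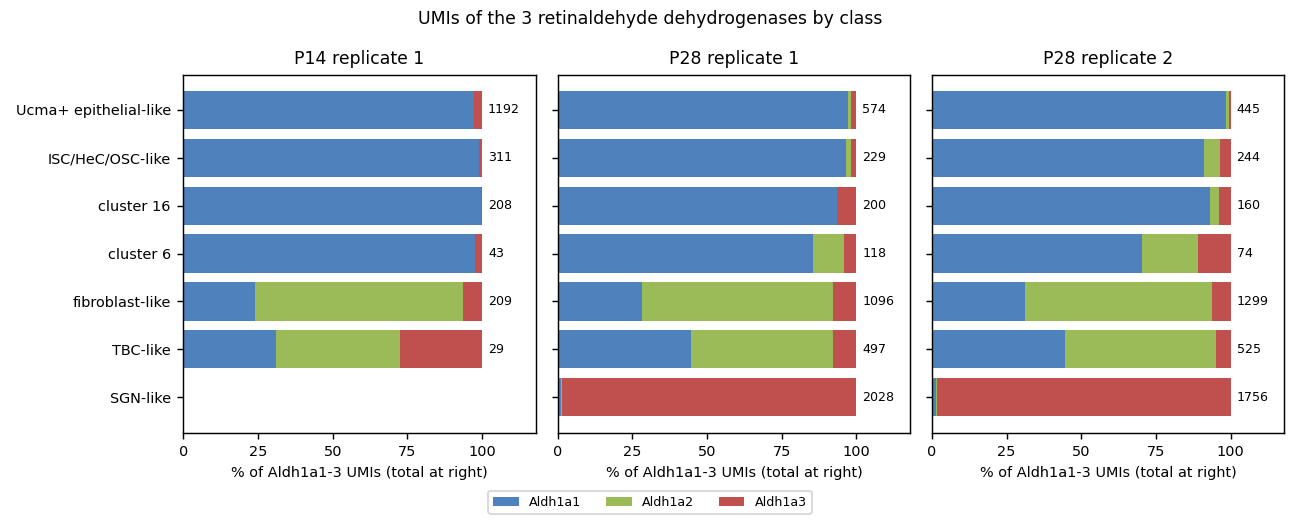
Share of the UMIs of Aldh1a1, Aldh1a2 and Aldh1a3 (x axis, percent of their sum) that each gene held in 7 classes (rows), with 1 panel per library and the sum of UMIs at the right of each bar. Aldh1a1 fills almost the whole bar in Ucma+ epithelial-like cells, at 97.1% to 98.4%, Aldh1a3 in SGN-like cells at P28, at 98.6% and 98.3%, and Aldh1a2 takes 62.6% to 69.9% in fibroblast-like cells.

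The upstream sequences of Aldh1a1 and Aldh1a2, the 2 dehydrogenases with a RefSeq start in the table used here, and of Rbp7, the gene with the largest difference between classes, are shown as the 250 bases before the annotated start (GRCm38.p6, 5′ to 3′ on the strand of the gene). Capitals mark a CCAAT box (CCAAT) for both dehydrogenases and the reverse complement of a GC box (GGGCGG) for Rbp7.
Aldh1a1, chr19:20601718-20601967, plus strand: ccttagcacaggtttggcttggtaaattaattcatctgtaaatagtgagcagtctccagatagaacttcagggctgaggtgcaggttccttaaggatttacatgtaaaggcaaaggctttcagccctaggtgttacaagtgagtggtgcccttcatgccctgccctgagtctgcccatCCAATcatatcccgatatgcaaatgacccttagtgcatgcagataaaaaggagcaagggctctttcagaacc
Aldh1a2, chr9:71215539-71215788, plus strand: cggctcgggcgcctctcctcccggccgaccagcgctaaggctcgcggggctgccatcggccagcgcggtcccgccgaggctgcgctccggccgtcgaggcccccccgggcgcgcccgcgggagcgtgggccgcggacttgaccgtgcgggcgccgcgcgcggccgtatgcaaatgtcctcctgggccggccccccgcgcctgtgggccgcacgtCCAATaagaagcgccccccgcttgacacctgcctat
Rbp7, chr4:149454969-149455218, minus strand: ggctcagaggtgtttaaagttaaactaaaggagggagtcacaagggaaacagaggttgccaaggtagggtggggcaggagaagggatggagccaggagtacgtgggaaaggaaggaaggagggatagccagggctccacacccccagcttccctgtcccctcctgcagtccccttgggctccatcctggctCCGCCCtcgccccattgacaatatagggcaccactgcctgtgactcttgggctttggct

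The 2 dehydrogenase sequences differed in base composition, with 46.4% G or C and 1 CG pair for Aldh1a1 against 77.6% and 40 CG pairs for Aldh1a2, and the Rbp7 sequence held 58.4% and 3 CG pairs. The CCAAT box began 72 bases before the start of Aldh1a1 and 36 bases before that of Aldh1a2, and the GC box began 59 bases before that of Rbp7. Both strands of the 32851 windows of this length in the table were searched, and 33.85% held CCAAT, 32.74% held GGGCGG, 12.37% held the TATA box core TATAAA and 14.02% held AGGTCA, a core site of nuclear receptors. Neither TATAAA nor AGGTCA was found in these 3 windows. The Aldh1a1 sequence belongs to the downstream of 2 annotated starts, and 3′ counts do not tell which start was used. Of the 9 genes, 7 had an entry.

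Aldh1a1 lies on chromosome 19 at 20492715 to 20643465 on the plus strand (GENCODE models on GRCm38) and encodes a cytosolic retinaldehyde dehydrogenase. Its level was 768, 319 and 350 CPM in Ucma+ epithelial-like cells, which held 62.8%, 30.2% and 24.6% of all its UMIs. ISC/HeC/OSC-like cells followed at 420, 160 and 187 CPM. Cluster 16 had 441, 154 and 189 CPM, and its P28 range overlapped that of ISC/HeC/OSC-like cells. Fibroblast-like cells came next at P28, at 105, 115 and 126 CPM.

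At the other end stood OHC-like cells, with 1.60, 10.5 and 14.4 CPM, and SGN-like cells, with 6.08 and 7.49 CPM at P28. An Aldh1a1 UMI was seen in 92.8%, 76.2% and 68.7% of Ucma+ epithelial-like cells, against 1.09%, 5.48% and 4.59% of OHC-like cells of like median depth (7489, 5132 and 3597 UMIs against 6517.5, 5244 and 3754). Red blood cell-like cells gave 45.2, 35.3 and 53.5 CPM and a UMI in 12.8%, 10.0% and 12.1% of cells, although mitochondrial, ribosomal protein and haemoglobin genes took 71.6% to 78.9% of their UMIs. Levels of Aldh1a1 in IHC-like and TBC-like cells lay in or near that range. Macrophage-like cells had 18.2, 17.6 and 49.5 CPM.

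Summed per library and set against all other kept cells, Aldh1a1 was higher in Ucma+ epithelial-like cells by 3.09 ± 0.16 on the log2 scale (SE, 3 libraries, higher in 3 of 3; 8.53-fold; adjusted p = 1.92e-05, edgeR quasi-likelihood test with Benjamini-Hochberg adjustment over all genes). It was higher in ISC/HeC/OSC-like cells by 1.35 ± 0.18 (adjusted p = 0.000829, edgeR) and in cluster 16, a comparison added after the levels were seen, by 1.38 ± 0.20 (adjusted p = 0.000148, edgeR). Of the 14 classes tested, 8 were lower. A gene with few UMIs in a class could pass the filter on low counts through the other cells alone. Nothing is therefore read from lower calls, here or for the other genes. In fibroblast-like cells the Aldh1a1 difference was 0.26 ± 0.49 (adjusted p = 0.715, edgeR). Within ISC/HeC/OSC-like cells at 1000 UMIs per cell, 13.6%, 24.6% and 13.3% of cells with an Aldh1a1 UMI also had a Crabp2 UMI, against 19.8%, 17.4% and 15.4% of the others, with no constant order.

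Aldh1a2, on chromosome 9 at 71215789 to 71296243 on the plus strand, encodes the dehydrogenase that supplies most retinoic acid to the early embryo. Its level in fibroblast-like cells was 306, 262 and 254 CPM, and these cells held 89.6%, 64.2% and 61.9% of its UMIs. Both clusters of that class carried it, at 223 and 229 CPM in cluster 0 and at 302 and 284 CPM in cluster 5 at P28. TBC-like cells had 39.5, 54.0 and 56.6 CPM. Macrophage-like cells had 3.64, 33.5 and 77.2 CPM, the first of these from 1 UMI. The fibroblast-like level was above that of every other class in each library, and macrophage-like and TBC-like cells overlapped.

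A UMI of Aldh1a2 was found in 38.1%, 40.4% and 36.7% of fibroblast-like cells, with median depths of 1750, 2111.5 and 1649 UMIs, and in 0%, 0.823% and 2.53% of ISC/HeC/OSC-like cells, with median depths of 1432, 2025.5 and 1969 UMIs. At P14 none of the 153 Ucma+ epithelial-like cells had one, which allows a level of up to 1.99 CPM. Aldh1a2 was higher in fibroblast-like cells than in all others by 4.55 ± 0.65 on the log2 scale (SE, 3 libraries, higher in 3 of 3; 23.5-fold; adjusted p = 0.00344, edgeR). In TBC-like cells the difference was 0.45 ± 0.15 (adjusted p = 0.0299, edgeR). This call was lost without P28 replicate 1 (0.45, adjusted p = 0.440, edgeR) and without P28 replicate 2 (0.66, adjusted p = 0.153, edgeR), and with the study's stricter limits on genes and UMIs per cell the difference turned to -0.17 (adjusted p = 0.353, edgeR). Aldh1a2 was lower in 8 of the 14 classes, and nothing is read from these lower calls.

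Aldh1a3, on chromosome 7 at 66390890 to 66427517 on the minus strand, encodes the third retinaldehyde dehydrogenase. At P28 its level in SGN-like cells was 607 and 562 CPM, and these cells held 88.7% and 88.9% of its UMIs. A UMI was found in 75.7% and 96.1% of these cells, with median depths of 11378 and 13396.5 UMIs, but in 6.19% and 2.63% of IHC-like cells with median depths of 9310 and 8007.5 UMIs. At P14 there were 6 SGN-like cells with 26935 UMIs in all and none of Aldh1a3, which allows a level of up to 111 CPM. Fibroblast-like cells (27.3, 31.8 and 25.9 CPM) and DC/PC-like cells (113, 11.4 and 44.0 CPM) came next, with overlapping ranges.

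The clusters with SGN markers were not alike in Aldh1a3. Cluster 15, the main SGN-like cluster, had a UMI in 165 of 165 and 211 of 212 cells at P28 and levels of 631 and 573 CPM. Cluster 20, with median depths of 1693 and 2796 UMIs, had 381 and 386 CPM. Cluster 28 stayed unnamed, with 6 of 7 SGN markers but none among its leading genes, and with 5 of 8 SC/SGC markers. It had 374 CPM in 8 cells of replicate 1 and 18.4 CPM in 16 cells of replicate 2, from 35 and 2 UMIs. Cluster 26, whose Malat1 share was 6.50%, as in nuclei, had 48.1 and 190 CPM, from 2 and 9 UMIs.

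Against all other cells at P28, Aldh1a3 was higher in SGN-like cells by 5.64 ± 0.10 on the log2 scale (SE, 2 libraries, higher in 2 of 2; 49.9-fold; adjusted p = 2.41e-11, edgeR). This comparison was added after the levels were seen, and of its 15168 genes 35.5% were higher and 42.9% lower in SGN-like cells. Of the 14 classes tested over all libraries, 0 were higher and 10 lower for Aldh1a3 by edgeR, also 0 higher at an unadjusted p under 0.05 and 0 by DESeq2, in comparisons where the other cells included the SGN-like cells of P28. Nothing is read from the 10 lower calls. In B cell-like cells the levels were 70.8, 0 and 7.70 CPM, and 17 of the 18 UMIs at P14 lay in 1 cell.

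**Figure D2:**
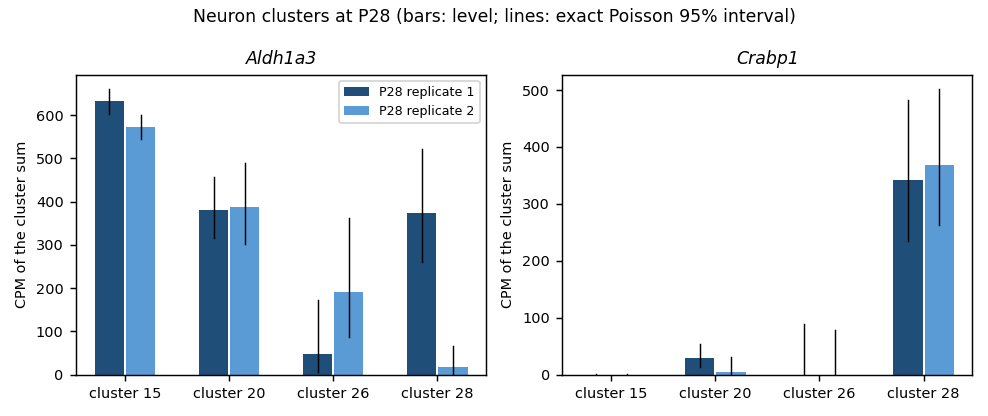
Levels of Aldh1a3 and Crabp1 (y axes, CPM of the cluster sum) in 4 clusters with SGN markers in the P28 libraries, with exact Poisson 95% intervals as lines. Clusters 15 and 20 are SGN-like, and clusters 26 and 28 are unnamed. Aldh1a3 is highest in cluster 15 at 631 and 573 CPM, while Crabp1 stands out in cluster 28 at 342 and 369 CPM.

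Dhrs3, on chromosome 4 at 144892827 to 144928209 on the plus strand, encodes a retinaldehyde reductase that returns retinaldehyde to retinol. It was called higher in more classes than any other of the 7 genes tested. Its level was 346, 557 and 464 CPM in RM-like cells, the thin epithelial and mesothelial sheet that bounds the scala media. Abcc9 mesenchymal-like cells had 91.7, 481 and 403 CPM, and their P28 range overlapped that of RM-like cells. Macrophage-like cells had 164, 180 and 178 CPM. In P28 replicate 2 alone, the library with 111 of the 115 IC-like cells, those pigmented cells had 495 CPM.

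Hair cells held little Dhrs3. OHC-like cells had 0.532, 11.3 and 7.94 CPM. IHC-like cells had 0, 4.13 and 5.05 CPM. A UMI was found in 50%, 65.0% and 57.1% of RM-like cells and in 2.56%, 12.5% and 6.90% of red blood cell-like cells, with median depths of 1228, 2242 and 1879.5 UMIs and of 4721, 3840 and 2632.5 UMIs. Dhrs3 was higher in 5 of the 14 classes and lower in 5, and nothing is read from the lower calls. The differences on the log2 scale were 2.99 ± 0.22 in RM-like cells (adjusted p = 2.36e-41), 2.37 ± 0.32 in Abcc9 mesenchymal-like cells (2.04e-07), 1.92 ± 0.38 in macrophage-like cells (0.00360), 1.00 ± 0.21 in Coch fibrocyte-like cells (0.00514) and 0.83 ± 0.18 in TBC-like cells (0.00376), all with SE over 3 libraries and by edgeR. The last 2 were not called with the study's stricter limits, nor without P28 replicate 1 (1.00, adjusted p = 0.120, and 0.86, adjusted p = 0.0736, edgeR).

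Crabp2, on chromosome 3 at 87948666 to 87953376 on the plus strand, encodes the carrier that delivers retinoic acid to its receptors. It was highest in cluster 16, at 445, 324 and 253 CPM, then in ISC/HeC/OSC-like cells at 267, 203 and 161 CPM and in Ucma+ epithelial-like cells at 147, 159 and 130 CPM. These were also the 3 with the highest Aldh1a1 levels. At P28 the ranges of these 3 did not overlap with one another.

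A UMI of Crabp2 was found in 63.6%, 84.3% and 77.2% of cluster 16 cells and in 0.725%, 3.01% and 3.18% of OHC-like cells, with median depths of 5504, 9036 and 5641 UMIs and of 6517.5, 5244 and 3754 UMIs. Crabp2 was higher in cluster 16, a comparison added after the levels were seen, by 2.89 ± 0.20 on the log2 scale (adjusted p = 6.30e-07, edgeR). It was also higher in ISC/HeC/OSC-like cells by 2.06 ± 0.16 (7.60e-05) and in Ucma+ epithelial-like cells by 1.81 ± 0.21 (0.000384), all with SE over 3 libraries and by edgeR. Fibroblast-like cells had 56.6, 123 and 86.2 CPM, a difference of 0.66 ± 0.44 that did not pass the test (adjusted p = 0.290, edgeR). Crabp2 was lower in 9 of the 14 classes, and nothing is read from these lower calls.

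Crabp1, on chromosome 9 at 54764748 to 54773110 on the plus strand, encodes the second retinoic acid carrier, and most of its few UMIs at P28 lay in 1 small unnamed cluster with SGN markers. The libraries held 7, 49 and 45 of its UMIs. At P28, cluster 28 held 32 of the 49 and 40 of the 45, in 5 of 8 and 12 of 16 cells, at 342 and 369 CPM. Of these UMIs, 18 of the 32 and 9 of the 40 lay in 1 cell each, and without that cell the level was 174 and 306 CPM. In cluster 15 none was found in 165 and 212 cells. Cluster 28 also had 428 and 562 CPM of Th, the rate-limiting enzyme of catecholamine synthesis, and 1326 and 1429 CPM of the neurotrophin receptor Ngfr, while cluster 15 had no Th UMI and 110 and 89.6 CPM of Ngfr. At P14, all 7 UMIs lay in 2 cells of cluster 20. With so few UMIs the gene was not tested over the 14 classes.

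Rbp7, on chromosome 4 at 149449687 to 149454978 on the minus strand, encodes a cellular retinol-binding protein. Its highest level was in the supporting cells around the hair cells. In DC/PC-like cells it was 1719, 622 and 667 CPM, and these cells, 24, 76 and 44 in number, held 77.1%, 57.5% and 41.9% of its UMIs. Cluster 6, led by Slitrk6, Far1 and Lfng, was next at 295, 43.8 and 39.4 CPM. No other class with at least 20 cells in each library reached 50 CPM. At P28 the ranges of DC/PC-like cells, cluster 6 and cluster 14 did not overlap.

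A UMI of Rbp7 was found in 83.3%, 51.3% and 50% of DC/PC-like cells and in 1.96%, 0.660% and 0.940% of Ucma+ epithelial-like cells, with median depths of 8886.5, 3699.5 and 3274 UMIs and of 7489, 5132 and 3597 UMIs. Rbp7 was higher in DC/PC-like cells by 6.74 ± 0.25 on the log2 scale (SE, 3 libraries, higher in 3 of 3; 107-fold; adjusted p = 2.22e-17, edgeR). In cluster 6, a comparison added after the levels were seen, it was higher by 2.07 ± 0.17 (adjusted p = 5.88e-07, edgeR). It was lower in 8 of the 14 classes, and nothing is read from these lower calls.

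Rlbp1, on chromosome 7 at 79374870 to 79387048 on the minus strand, encodes the retinaldehyde-binding protein known from the visual cycle of the retina. Its level was 267, 175 and 190 CPM in cluster 6, 413, 108 and 81.8 CPM in DC/PC-like cells, and 66.6, 107 and 114 CPM in RM-like cells. In IHC-like cells it was 75.2, 76.4 and 101 CPM. At P28 cluster 6 stood above the rest, and the ranges of RM-like, DC/PC-like and IHC-like cells overlapped from one to the next. A UMI was found in 47.4%, 48.4% and 38.4% of cluster 6 cells against 0.418%, 0.315% and 0.530% of fibroblast-like cells, with median depths of 2275, 3234 and 2376 UMIs and of 1750, 2111.5 and 1649 UMIs.

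Rlbp1 was higher in cluster 6, a comparison added after the levels were seen, by 3.89 ± 0.16 on the log2 scale (adjusted p = 2.03e-09, edgeR). It was also higher in DC/PC-like cells by 3.24 ± 0.37 (8.37e-08), in RM-like cells by 2.44 ± 0.19 (1.08e-36) and in IHC-like cells by 1.92 ± 0.24 (0.000434), all with SE over 3 libraries and by edgeR. With the study's stricter limits the difference in IHC-like cells was 0.78 (adjusted p = 0.372, edgeR). Rlbp1 and Rbp7 thus shared DC/PC-like cells and cluster 6, but RM-like and IHC-like cells had Rlbp1 with little Rbp7, at 0, 3.50 and 9.77 CPM and at 37.6, 9.29 and 8.41 CPM.

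Rbp4, on chromosome 19 at 38116629 to 38125281 on the minus strand, encodes the retinol carrier of blood, which is made mainly in the liver. It had 9, 2 and 8 UMIs in all, and 6 of the 9 at P14 lay in 1 fibroblast-like cell. In TBC-like cells of P28 replicate 2, 5 cells had 1 UMI each (1.06 CPM). With so few UMIs it was not tested.

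**Figure D3:**
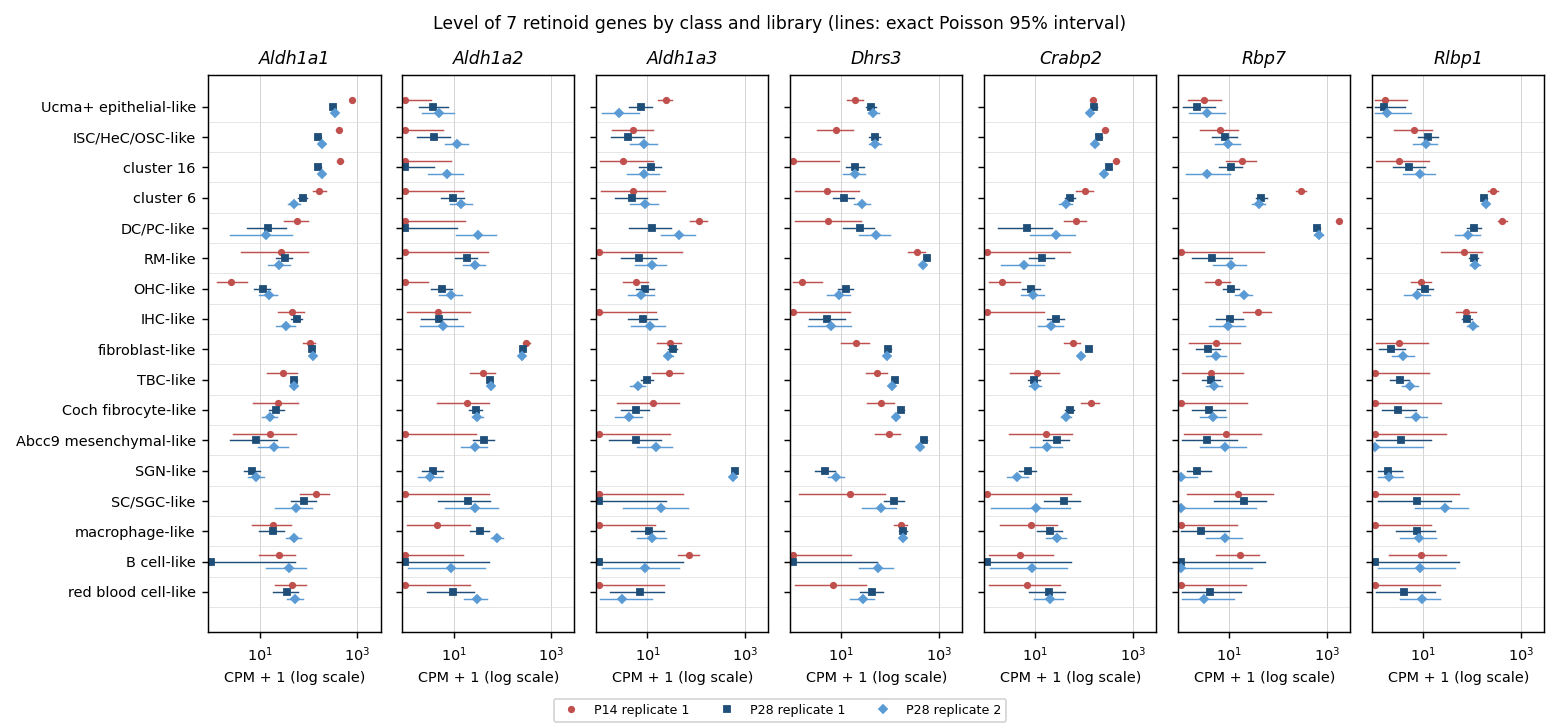
Level of 7 retinoid genes (panels) in each class (rows) and library (colours), as CPM + 1 on a log axis with exact Poisson 95% intervals as lines. The highest rows differ by gene: Ucma+ epithelial-like cells for Aldh1a1 (768, 319 and 350 CPM), fibroblast-like cells for Aldh1a2 (306, 262 and 254 CPM) and DC/PC-like cells for Rbp7 (1719, 622 and 667 CPM).

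Over the 14 named classes with at least 20 cells in each library, 7 of the 9 genes passed the filter on low counts in each comparison. Of these 98 pairs of gene and class, 15 were higher than in all other cells, 56 lower and 27 not called. A gene with few UMIs in a class passed the filter through the other cells alone, so nothing is read from the lower calls. With at least 10 UMIs in every sum, 20 pairs were tested, of which 13 were higher and 2 lower. That filter favours pairs in which the gene is high in the class. No share over all genes was taken under it, so nothing is read from these counts. Read against the background, 1 to 2 of 7 genes were higher in the classes that led them, where 8.03% of all tested genes were higher in Abcc9 mesenchymal-like cells, 7.95% in DC/PC-like cells, 10.4% in Coch fibrocyte-like cells, 12.7% in ISC/HeC/OSC-like cells, 13.8% in macrophage-like cells, 14.1% in IHC-like cells, 14.4% in fibroblast-like cells, 15.1% in RM-like cells, 19.6% in Ucma+ epithelial-like cells and 23.9% in TBC-like cells. In OHC-like, B cell-like, SC/SGC-like and red blood cell-like cells 0 of 7 were higher by edgeR, also 0 at an unadjusted p under 0.05 and 0 by DESeq2, where 24.4%, 9.53%, 3.09% and 3.55% of all tested genes were higher. In clusters 6 and 16, both tested only after the levels were seen, 2 of 7 were higher in each against 16.2% and 15.4% of all genes. In these clusters 3 and 5 of 7 were lower against 21.8% and 21.4%.

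For completeness, the lower calls are given with their background. Nothing is read from them, since a gene could pass the filter on low counts through the other cells alone. In OHC-like cells 6 of 7 genes were lower against 30.4% of all tested genes, in IHC-like cells 5 of 7 against 20.6% and in RM-like cells 5 of 7 against 22%. In Abcc9 mesenchymal-like, B cell-like, Coch fibrocyte-like and macrophage-like cells 5 of 7 were lower against 12.7%, 20%, 19.6% and 17.1%. In DC/PC-like, ISC/HeC/OSC-like and TBC-like cells 4 of 7 were lower against 14.4%, 18.3% and 29.8%. In Ucma+ epithelial-like cells 3 of 7, in fibroblast-like and SC/SGC-like cells 2 of 7 and in red blood cell-like cells 1 of 7 were lower, against 23.8%, 22.1%, 4.37% and 3%. In SGN-like cells at P28 6 of 8 were lower against 42.9%.

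The nonsensory epithelium and the mesenchyme, the neighbouring layers of the cochlear duct wall, were compared as 2 sums per library. The epithelium was called higher in Aldh1a1, Crabp2, Rbp7 and Rlbp1 and lower in Aldh1a2. At P14 Aldh1a2 had 0 epithelial UMIs, and Rbp7 and Rlbp1 had 4 and 1 mesenchymal UMIs. These 3 genes could therefore pass the filter on low counts through 1 compartment alone. Nothing is read from their tests, and their levels are given as a description. Aldh1a1 had 524, 153 and 163 CPM in epithelial against 58.5, 63.0 and 65.0 CPM in mesenchymal cells, a difference of 2.02 ± 0.46 on the log2 scale (SE, 3 libraries; adjusted p = 0.0148, edgeR). Aldh1a2 had 0, 5.47 and 11.9 CPM against 145, 111 and 111 CPM, a difference of -4.24 ± 0.64 (adjusted p = 0.00316, edgeR). In both genes the compartments did not overlap.

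Crabp2 had 202, 139 and 106 CPM in epithelial against 49.5, 50.01 and 39.2 CPM in mesenchymal cells (1.77 ± 0.22, adjusted p = 0.00158, edgeR). Rbp7 had 146, 41.5 and 29.5 CPM against 3.60, 2.90 and 4.04 CPM (3.78 ± 0.39, adjusted p = 0.000852, edgeR), and Rlbp1 had 52.5, 54.3 and 56.2 CPM against 0.900, 1.90 and 3.95 CPM (4.43 ± 0.30, adjusted p = 0.000279, edgeR). These 3 carriers were higher in the epithelial sum in 3 of 3 libraries, but not in every epithelial class. At P14, DC/PC-like cells and cluster 6 held 395 and 74 of the 484 epithelial Rbp7 UMIs. Ucma+ epithelial-like cells had Rbp7 at 1.99, 1.14 and 2.40 CPM and Rlbp1 at 0.663, 0.571 and 0.799 CPM, below the mesenchymal levels. Dhrs3, at 18.4, 96.5 and 88.7 CPM against 44.1, 138 and 116 CPM, did not pass (-0.52 ± 0.17, adjusted p = 0.0546, edgeR), and neither did Aldh1a3 (-0.42 ± 0.26, adjusted p = 0.237, edgeR). Without P14 replicate 1 both were lower in the epithelium (-0.38, adjusted p = 0.00285, and -0.66, adjusted p = 0.0135, edgeR). Of all 13474 genes tested 24.8% were higher and 22.6% lower in the epithelium, beside 4 and 1 of the 7 retinoid genes. These counts include the calls of Aldh1a2, Rbp7 and Rlbp1, from which nothing is read.

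Between the 2 kinds of hair cell, 3 of the 9 genes could be tested. Rlbp1 and Aldh1a1 could pass the filter on low counts through IHC-like cells alone. Nothing is read from their tests, and their levels are given as a description. Rlbp1 was lower in OHC-like cells, at 7.98, 9.72 and 6.50 CPM against 75.2, 76.4 and 101 CPM in IHC-like cells, a difference of -3.15 ± 0.26 on the log2 scale (SE, 3 libraries, lower in 3 of 3; 8.90-fold; adjusted p = 1.40e-05, edgeR). The groups did not overlap, with 15, 24 and 9 UMIs in OHC-like and 20, 74 and 60 in IHC-like cells. The IHC-like cluster also met 5 of 6 markers of inner phalangeal and border cells, and no doublets were removed. Whether transcripts of such supporting cells added to its Rlbp1 level was not tested. Aldh1a1, at 1.60, 10.5 and 14.4 CPM against 45.1, 56.8 and 33.6 CPM, was also lower (-2.18 ± 0.45, adjusted p = 0.00398, edgeR), with IHC-like levels in or near the range of red blood cell-like cells. Rbp7 gave a difference within its error (-0.24 ± 0.65, adjusted p = 0.807, edgeR). Among 9539 genes tested, OHC-like cells were higher in 17.2% and lower in 17.4%, beside 0 and 2 of the 3 retinoid genes. The 2 lower calls are those of Rlbp1 and Aldh1a1, from which nothing is read.

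**Figure D4:**
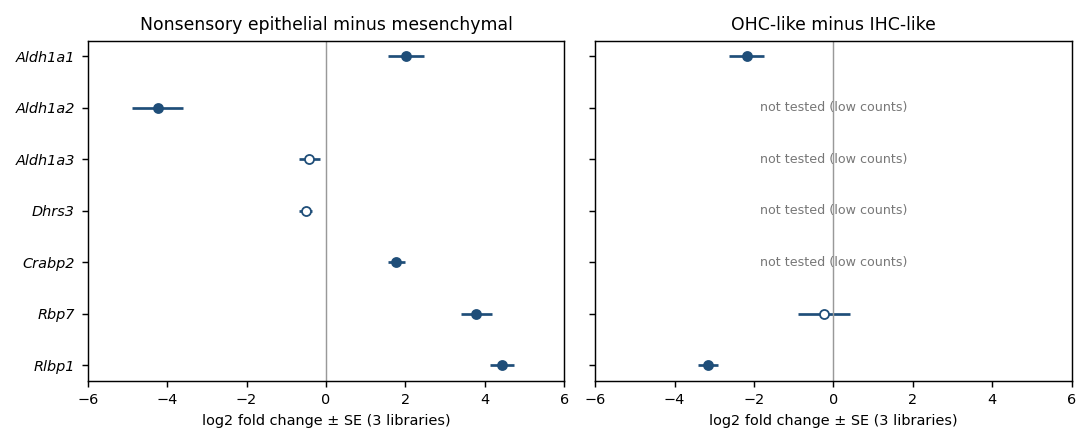
Log2 fold change with SE over 3 libraries (x axes) of the retinoid genes (rows) for nonsensory epithelial against mesenchymal cells and for OHC-like against IHC-like cells, where values above 0 mean higher in the first named and filled points passed an adjusted p of 0.05. Aldh1a1 and Crabp2 point to the epithelium at 2.02 and 1.77. Nothing is read from Aldh1a2 (-4.24), Rbp7 and Rlbp1 (4.43) in that comparison, or from Aldh1a1 and Rlbp1 (-3.15) between hair cells. These could pass the filter on low counts through 1 side alone.

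With 1 library at P14 the ages were compared by size only, over pairs of gene and class in which at least 1 of the 3 sums reached 50 CPM. A pair was called where P14 differed at least 2-fold from both P28 libraries in the same direction. In all, 37 pairs reached that level, and 13 were higher and 7 lower at P14. Over all genes, the share higher at P14 ran from 4.9% in OHC-like to 29.7% in red blood cell-like cells. The share lower ran from 4.83% in ISC/HeC/OSC-like to 32% in SC/SGC-like cells. The direction differed between genes. Aldh1a1 was higher at P14 in 5 of 10 classes, Crabp2 in 3 of 7, Rbp7 and Aldh1a3 in 2 of 2 each and Rlbp1 in 1 of 4, whereas Dhrs3 was lower in 6 of 9 and Aldh1a2 in 1 of 3.

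The Aldh1a1 level at P14 was 2.29 times the P28 mean in Ucma+ epithelial-like cells, 2.41 times in ISC/HeC/OSC-like cells, 2.56 times in cluster 16 and 2.65 times in cluster 6. In Ucma+ epithelial-like cells 8.69% of all genes over the same limit were higher at P14 and 4.95% lower, in ISC/HeC/OSC-like cells 8.93% and 4.83%, in cluster 16 7.98% and 4.95% and in cluster 6 8.18% and 6.93%. In DC/PC-like cells, 24 cells at P14, Rbp7 was 2.67 times and Rlbp1 4.31 times the P28 mean, with Aldh1a1, Aldh1a3 and Crabp2 also higher and Dhrs3 lower, where 9.74% of all genes were higher and 9.86% lower. The P28 levels there rested on 5 and 2 UMIs for Aldh1a1, 4 and 7 for Aldh1a3 and 2 and 4 for Crabp2. DC/PC-like cells could not be compared with the ages clustered separately. Rbp7 in cluster 6 was 6.95 times the P28 mean. In B cell-like cells, where Aldh1a3 was higher through 1 cell, 6.31% of all genes were higher and 7.33% lower at P14. Crabp2 in Coch fibrocyte-like cells had 135, 49.2 and 41.3 CPM, where 10.6% of all genes were higher at P14.

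Dhrs3 had lower levels at P14 in 4 mesenchymal classes, but not in these alone. The nonsensory epithelial sum had 18.4, 96.5 and 88.7 CPM, beside 44.1, 138 and 116 CPM in the mesenchymal sum. RM-like cells held 26 of its 61, 478 of its 724 and 285 of its 521 Dhrs3 UMIs. Their own level, at 346, 557 and 464 CPM, was not called. They made up 75079 of the 3314051 UMIs of the epithelial sum at P14, but 857598 of 7499636 and 614338 of 5872583 at P28. The part of this difference in the epithelial sum was not tested. ISC/HeC/OSC-like cells, under the limit of 50 CPM, had 6.82, 47.1 and 47.9 CPM. The P28 mean was 4.78 times the P14 level in Abcc9 mesenchymal-like cells, 4.40 times in fibroblast-like cells, 2.31 times in Coch fibrocyte-like cells and 2.19 times in TBC-like cells. The shares of all genes lower at P14 in these classes were 11.7%, 5.84%, 9.65% and 6.01%. In SC/SGC-like and DC/PC-like cells the P14 level of Dhrs3 rested on 1 UMI each, and 32% of all genes were lower at P14 in SC/SGC-like cells. Macrophage-like cells, where 10.8% of all genes were lower at P14, had like Dhrs3 levels at both ages, at 164, 180 and 178 CPM.

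The scale mattered for these counts. Mitochondrial, ribosomal protein and haemoglobin genes took 13.9% of the UMIs of Ucma+ epithelial-like cells at P14 and 25.8% and 28.2% at P28, and leaving these out of CPM gave 10 pairs higher and 13 lower at P14, of 45. The median over all genes in Ucma+ epithelial-like cells then moved from 0.12 to -0.16 on the log2 scale of P14 over P28. On that scale Aldh1a1 in Ucma+ epithelial-like and ISC/HeC/OSC-like cells and Crabp2 in cluster 6 no longer reached 2-fold against both P28 libraries, while Aldh1a1 in clusters 6 and 16 and Dhrs3 in Abcc9 mesenchymal-like, Coch fibrocyte-like, fibroblast-like and TBC-like cells kept their calls. Dhrs3 in ISC/HeC/OSC-like, Ucma+ epithelial-like and red blood cell-like cells then passed the lower limit on CPM and was called lower at P14. Age and library cannot be told apart here.

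**Figure D5:**
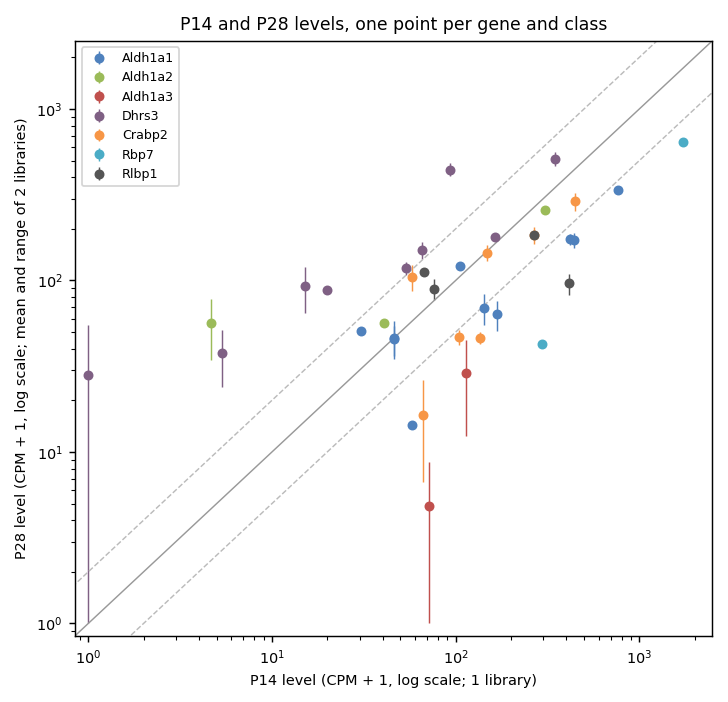
Level at P14 (x axis, CPM + 1, log scale, 1 library) against P28 (y axis, CPM + 1, log scale, mean with the range of 2 libraries as bars), with 1 point per gene and class that reached 50 CPM and dashed lines at 2-fold. The Dhrs3 points of mesenchymal and other classes lie above the diagonal, as in Abcc9 mesenchymal-like cells at 91.7 against 481 and 403 CPM, and the highest Rbp7 and Aldh1a1 points lie to the right of it.

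Of 45 other genes of the retinoid pathway in the files, 23 to 26 could be tested in each class. TBC-like cells had 15 of 25 higher and 5 lower, where 23.9% of all tested genes were higher and 29.8% lower, led by Rarres1, a retinoic acid receptor responder gene (3813, 207.5 and 205.1 CPM, 6.57 ± 0.63 on the log2 scale), Cyp26b1, which degrades retinoic acid (0, 17.3 and 10.6 CPM, 2.92 ± 0.32), and Stra6, the retinol uptake receptor (6.59, 30.5 and 29.2 CPM, 2.39 ± 0.39), the last 2 higher in 2 of 3 libraries. Fibroblast-like cells, the class with most Aldh1a2, had 10 of 25 higher and 5 lower, against 14.4% and 22.1% of all genes, led by the alcohol dehydrogenase Adh1 (2.56 ± 0.58), Rarres2 (2.53 ± 0.42) and Tgm2 (2.17 ± 0.37). In RM-like cells, high in Dhrs3 and Rlbp1, Ttr, which carries Rbp4 in blood, was higher by 7.69 ± 0.27. The hair cells were higher in Rdh12, a retinaldehyde reductase, by 4.20 ± 0.28 in OHC-like and 2.38 ± 0.29 in IHC-like cells. All of these passed the edgeR test over all genes.

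Between epithelium and mesenchyme, 6 of 25 pathway genes were higher and 13 lower, against 24.8% and 22.6% of all tested genes, with a median of -0.71 on the log2 scale. Cyp26b1, like Aldh1a2, was called lower in the epithelium (-4.21 ± 0.37). Ucma+ epithelial-like cells and cluster 16 had 0 CPM of Cyp26b1 in each library. It could pass the filter on low counts through the mesenchyme alone, so nothing is read from this call. In OHC-like against IHC-like cells 5 of 16 were higher, with Stra6 (3.45 ± 0.53) and Rxrg (2.63 ± 0.51) in front, and 3 lower, among them Rdh10, a retinol dehydrogenase (-2.30 ± 0.36), against 17.2% and 17.4% of all tested genes. In IHC-like cells Stra6 had 0, 3.10 and 1.68 CPM and Rxrg 0, 6.19 and 1.68 CPM. Both could pass the filter on low counts through OHC-like cells alone, and Rdh10 through IHC-like cells alone. Nothing is read from these named calls. In SGN-like cells at P28, the cells with most Aldh1a3, 5 of 26 were higher and 19 lower, against 35.5% and 42.9%.

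The genes most like each member were found by Pearson's r of log2(CPM + 10) over 48 sums of 16 classes in 3 libraries, which share libraries and depth, so r is a description. Aldh1a2 was most like Aard, Pde1a and Met (r = 0.914, 0.910 and 0.900). Rbp7 was most like 1700015G11Rik, F12 and Cep41 (r = 0.960, 0.908 and 0.907), and Rlbp1 like Liph, E130114P18Rik and Ppp2r2b (r = 0.892, 0.891 and 0.886). Dhrs3 was most like Hspb1, Ogn and Rnase4 (r = 0.824, 0.796 and 0.788), Crabp2 like Tgfb2, Lum and Smarca1 (r = 0.814, 0.810 and 0.805) and Aldh1a1 like Hamp2, Cdc42ep2 and Dip2c (r = 0.787, 0.782 and 0.779). Aldh1a3 had no close partner in these sums, which lack SGN-like cells, with Terf1, Gm13782 and Cops7b in front (r = 0.609, 0.571 and 0.563).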

How the data were processed

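Dissociated cochlear cells of 3 libraries were profiled with the Chromium 3′ kit. The authors deposited UMI counts per gene and barcode, unnormalized, in a matrix per library. The submitters' notes name Cell Ranger 6.0.1 and the build mm10, while the file header gives version 5.0.1. The genes and lists were chosen with earlier results of these data known.

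Barcodes with 200 to 6000 genes and at most 15% mitochondrial UMIs were clustered in Seurat 5.3.0 (R 4.3.3), with the libraries integrated. A name needed 3 detected markers of its type, with at least 1 of them among the cluster's 10 leading genes. Scrublet (scanpy 1.11.5) called 4, 0 and 1 cells, so the caller did not work, and no doublets were removed. UMIs were summed per class and library and tested with edgeR 4.0.16 (quasi-likelihood test, TMM, library as a term, filterByExpr, Benjamini-Hochberg adjustment over all genes, threshold of 0.05). The library term is a pairing by construction, since both sums come from the same library. P14 and P28 share only the replicate number 1, so ages were not paired. The libraries pool 7 mice each. The p-values rest on a spread between these libraries that edgeR estimates in part over all genes. A very small p-value therefore does not measure how a single gene varied between libraries. The SE is the log2 difference divided by the square root of the F statistic of the test. Classes with fewer than 20 cells in any library were given levels only, except SGN-like cells, which were tested at P28.

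Named pathway genes were up to 3 per direction by log2 difference. Not all of them are reported here. The test was checked on simulated counts. Levels at P14 and P28 were compared after adding 1 CPM. Alternatives included other limits, clustering, normalization, filters and tools. RefSeq promoters and GENCODE positions are on GRCm38. Aldh1a7, a near copy of Aldh1a1, had 19 UMIs in the kept cells, and the antisense gene C730002L08Rik, which overlaps Aldh1a1, had 7 in all barcodes.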

Additional observations from a re-analysis of the deposited data

Results flagged for a closer look

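In 4 cases a gene stood on opposite sides of all other cells at the 2 ages, and the difference between the ages was not tested. Aldh1a1 in fibroblast-like cells was lower than in all other cells at P14 (105 against 258 CPM) and higher in both P28 libraries (115 against 70.2 CPM and 126 against 68.7 CPM). Crabp2 in the same cells did likewise (56.6 against 101 CPM at P14, 123 against 57.1 CPM and 86.2 against 40.8 CPM at P28). Aldh1a3 in Ucma+ epithelial-like cells went the other way (22.5 against 13.7 CPM at P14, 6.28 against 98.2 CPM and 1.6 against 88.0 CPM at P28). Aldh1a3 in B cell-like cells did so too (70.8 against 13.5 CPM at P14, 0 against 91.9 CPM and 7.7 against 83.8 CPM at P28), with 17 of its 18 UMIs at P14 in 1 cell. The other cells of P14 held 6 SGN-like cells, against 309 and 254 at P28, and the part of this difference in the Aldh1a3 results was not tested. In fibroblast-like cells neither Aldh1a1 nor Crabp2 differed 2-fold between P14 and both P28 libraries. Ucma+ epithelial-like cells, highest in Aldh1a1, held 20.3% of all UMIs at P14 but 7.12% and 5.37% at P28. The part of this difference in the fibroblast-like results was not tested either.

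In barcodes left out for their gene number or mitochondrial share, 2 genes were more abundant at P14 than in the kept cells. Aldh1a3 had 29.7 CPM against 15.5 CPM, and Rbp7 had 112 CPM against 68.9 CPM.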

How the results depend on the processing

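Of 800 alternative values of 55 differences in the 9 genes and leading pathway genes, 746 kept direction and call, 45 lost the call, 7 gained one and 2 turned direction, and 21 differences changed call under some setting. The turned values were Aldh1a2 in TBC-like cells at -0.17 with the study's stricter limits on genes and UMIs, and Rbp7 in OHC-like against IHC-like cells, between -1.08 and 0.66 when 1 library was left out. Without the library as a block (no pairing of the sums of a library), 9 pairs of gene and class were higher and 34 lower, instead of 15 and 56. With at least 10 UMIs in every sum, a filter that favours genes high in the class, 20 pairs were tested, 13 of them higher and 2 lower. Leaving out a library gave 13 to 18 higher and 37 to 61 lower, the 37 without P28 replicate 1. Between epithelium and mesenchyme, 1 gene was lower in the reported fit, and 2 were with a limit of 30% mitochondrial UMIs, a resolution of 2, ages clustered separately (added after seeing the data), without the highest doublet scores, with DESeq2's size factors and with no filter on low counts. The filter of 10 UMIs left 2 of 4 higher and 0 lower, where Aldh1a2, Rbp7 and Rlbp1 were no longer tested, and leaving out 1 library gave 1 to 3 lower, the 3 without P14 replicate 1. With the study's limits, only 1 gene of OHC-like against IHC-like cells was tested, and that 1 was lower. The cause of the other changes was not tested. For the ages, leaving mitochondrial, ribosomal and haemoglobin genes out of CPM gave 13 pairs lower at P14 and the study's limits 4, instead of 7, and leaving out a P28 library gave 6 to 8.

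Depth limits the shares of cells with a UMI. Thinned to 1000 UMIs per cell, the P28 shares were 30.2% for Aldh1a1 in Ucma+ epithelial-like, 21.6% for Aldh1a2 in fibroblast-like, 35.2% for Aldh1a3 in SGN-like, 35.6% for Rbp7 in DC/PC-like and 41.2% for Dhrs3 in RM-like cells, 18.6% for Rlbp1 in cluster 6 and 28.1% for Crabp2 in cluster 16. Cluster 16 could not be compared without integration or with the ages clustered separately, nor DC/PC-like cells with the latter.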

Other observations

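Among retinoid pathway genes chosen after their values were seen, Fabp5, a fatty acid-binding protein that also binds retinoic acid, had 1063, 7.98 and 2.91 CPM in macrophage-like cells and 960.5, 81.9 and 108.5 CPM in SC/SGC-like cells. In both classes the single P14 library stood far above both P28 libraries, and no test was made. Rarres1 in TBC-like cells showed the same order, at 3813, 207.5 and 205.1 CPM, and its level in IHC-like cells was 127.8, 52.6 and 35.3 CPM.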
